A study of Mus musculus with 14 samples.

Results

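Zfp781, Hddc3, Cacna1a, Gfra2 and Sbsn are 5 mouse genes with low values in tumor-associated macrophages (TAM) of wild-type (WT) mice and higher values in all 4 macrophage libraries of mice without PI3K gamma. They were picked from the 12924 genes of the deposited tables because of that difference, and because none has a known interferon role. All 5 were matched by symbol in both tables. The values that chose them are therefore described here without a test, and the genes are tested only in the whole tumor libraries, which did not enter the choice.

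The libraries came from tumors of Lewis lung carcinoma (LLC), a mouse lung tumor cell line, grown in the flanks of C57BL/6 mice and taken on day 14. The mice were either WT or p110g-/-, labelled as null for PI3K gamma, whose catalytic subunit is encoded by Pik3cg. In each genotype, 4 libraries were made from CD11b+Gr1- cells sorted by flow cytometry, which the labels name TAM, and 3 from pieces of whole tumor. No group received a drug, and all hosts carried the same transplanted line. The labels do not say whether macrophages and whole tumors came from the same mice or whether each library is a separate animal. The p-values therefore set a genotype difference against the spread among these libraries only, and that spread may be technical.

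PI3K gamma is the leukocyte lipid kinase that acts below G protein-coupled receptors, and it is studied in tumor macrophages for its part in setting their inflammatory state. The 5 genes belong to no shared pathway. Gfra2 encodes a lipid-anchored co-receptor that binds neurturin, a ligand of the glial cell line-derived neurotrophic factor (GDNF) family, and signals through the receptor tyrosine kinase RET, best known in neurons. Cacna1a encodes the pore-forming subunit of the P/Q-type voltage-gated calcium channel of nerve terminals. Hddc3 encodes an HD-domain hydrolase, the animal relative of the bacterial enzymes that degrade the alarmone ppGpp, and is known to act on NADPH. Sbsn encodes suprabasin, a secreted protein of differentiating epidermis. Zfp781 encodes a zinc finger protein known mainly by its number.

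The stretches of 250 bases before the annotated start of the genes are shown because genes that share a difference can be compared for shared motifs. RefSeq windows (GRCm38.p6) were matched for 3 of the 5 genes and are printed 5′ to 3′ on the gene's strand, with matches to the searched motifs in capitals. They lie at chr10:81930513-81930762 (minus strand) for Zfp781, chr7:80342887-80343136 (plus strand) for Hddc3 and chr7:30751221-30751470 (plus strand) for Sbsn.
Zfp781: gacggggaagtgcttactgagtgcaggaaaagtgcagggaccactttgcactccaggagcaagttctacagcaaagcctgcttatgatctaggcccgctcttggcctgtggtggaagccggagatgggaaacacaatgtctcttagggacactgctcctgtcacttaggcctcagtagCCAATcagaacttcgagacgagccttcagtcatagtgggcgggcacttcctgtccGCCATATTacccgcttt
Hddc3: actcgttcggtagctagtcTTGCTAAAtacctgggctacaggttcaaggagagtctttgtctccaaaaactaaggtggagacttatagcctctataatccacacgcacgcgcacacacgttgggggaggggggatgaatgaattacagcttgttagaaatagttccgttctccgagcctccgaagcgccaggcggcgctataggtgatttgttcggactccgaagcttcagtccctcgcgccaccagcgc
Sbsn: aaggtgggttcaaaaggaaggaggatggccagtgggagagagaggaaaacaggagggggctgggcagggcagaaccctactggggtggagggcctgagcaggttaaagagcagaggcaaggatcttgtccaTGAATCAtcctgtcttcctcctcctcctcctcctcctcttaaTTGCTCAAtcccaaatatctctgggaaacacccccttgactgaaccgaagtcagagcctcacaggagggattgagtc

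The search covered 10 motifs on both strands: PU.1 (GAGGAAGT), ETS (CCGGAAG), AP-1 (TGANTCA), C/EBP (TTGCNNAA), the interferon response element, the CCAAT box (CCAAT), the TATA box (TATAAA), cAMP response (TGACGTCA), E-box (CACGTG) and YY1 (GCCATNTT). The C/EBP letters were found in the Hddc3 window (from base 20) and the Sbsn window (from base 174), and in 9.56% of the 32851 windows of all genes. The Sbsn window also held the AP-1 letters (from base 132, found in 6.75% of windows). The Zfp781 window held CCAAT (from base 179, 33.8% of windows) and the YY1 letters (from base 234, 3.91% of windows). No motif was found in all 3 windows, and the interferon response element, found in 2.98% of windows, was in none of them. The windows also differed in CpG dinucleotides, with 17 in Hddc3, 8 in Zfp781 and 1 in Sbsn against a median of 6 over all windows. A match describes letters only and is not evidence of binding.

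Column totals were 33248294 to 38153438 normalized counts in the TAM libraries and 25883561 to 27586429 in the whole tumors, and the estimated depth was 19.7 to 40.7 M and 32.1 to 44.6 M reads. By these estimates 3 reads make 1.79 to 5.81 normalized counts, a floor that covers counting error only. Pik3cg, the targeted gene, was at 2748 to 4477 in WT TAM and 1210 to 2211 in p110g-/- TAM, and at 487 to 616 and 242 to 417 in the whole tumors, so the groups did not overlap in either table. The sorted libraries carried the defining macrophage genes Csf1r (43116 to 70505 normalized counts over the 8 libraries), Itgam (46729 to 96331) and Cd68 (22197 to 30208). Mitochondrial genes took 2.51% to 3.21% of TAM libraries 1 and 2 of both genotypes and 7.70% to 14.4% of libraries 3 and 4, with p110g-/- TAM 4 highest, against 2.49% to 3.32% in whole tumors.

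In TAM, 9 of 12475 genes tested were called higher in p110g-/- libraries (0.0721%, adjusted p below 0.05 with limma) and 5 lower (0.0401%). With the replicate number as a block these were 126 (1.01%) and 186 (1.49%). All 5 genes described here are among the 9, which is how they were chosen, and nothing is read from that count. The other 4 were the lysozyme gene Lyz1, the lectin-like receptor gene Klrb1b, and Raet1e and H60b, ligands of the receptor NKG2D. Of the 5 genes, Sbsn lay nearest to the threshold. Just outside it were Cd14 (mean of 17192 in WT and 58539 in p110g-/- TAM), Dram1 (1621 and 2316), Glul (5398 and 8045), Man2a2 (1625 and 2782) and Hr (45.8 and 158). Leaving out WT TAM 1 gave 33 genes called higher, and leaving out each other library except p110g-/- TAM 1 gave 3 to 5.

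**Figure D1:**
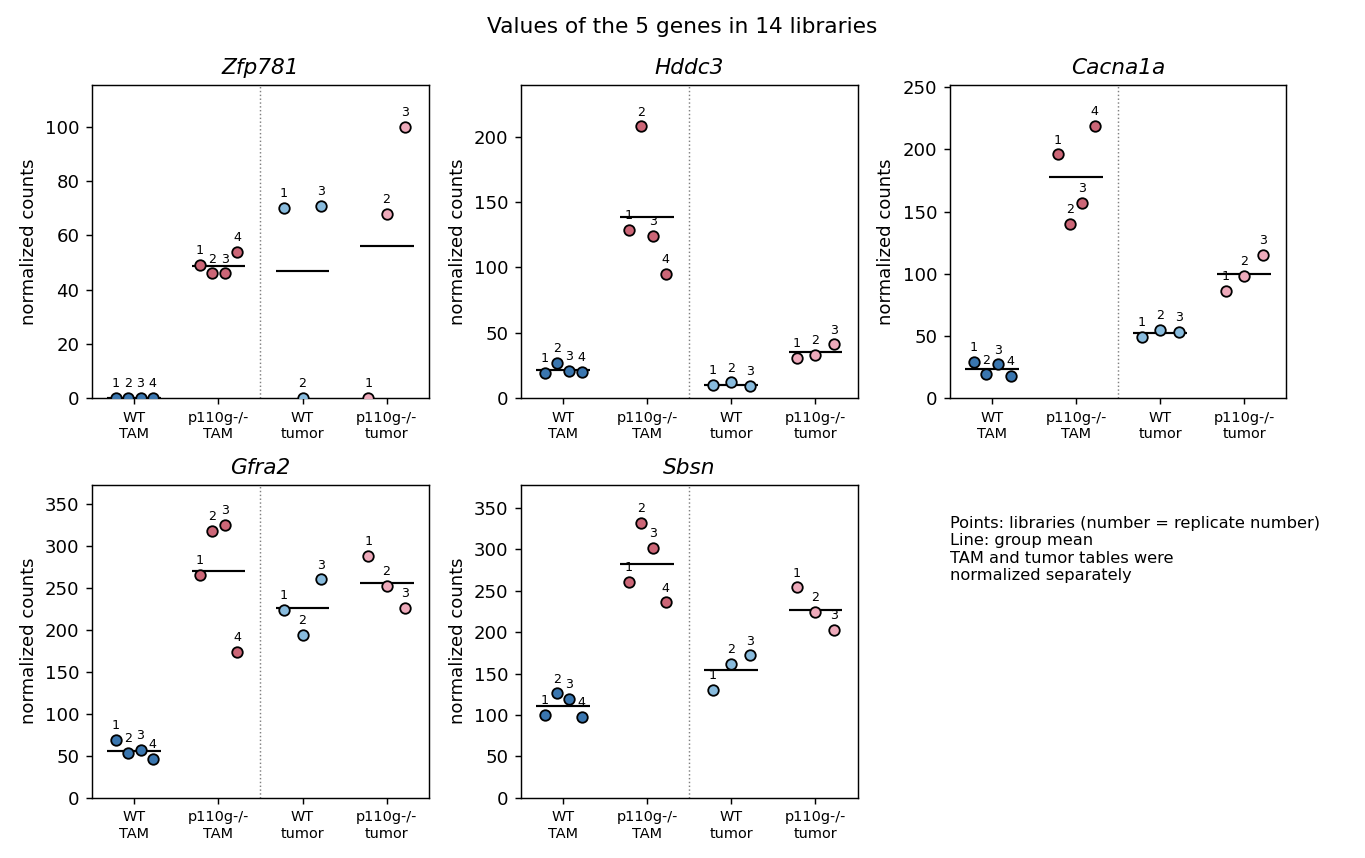
Normalized counts (vertical axis, linear, from 0) of the 5 genes in the 14 libraries, by genotype and material. Points are libraries with their replicate number and lines are group means. In TAM every p110g-/- library lies above every WT library for each gene. In whole tumor this holds for Hddc3, Cacna1a and Sbsn, while Gfra2 overlaps and Zfp781 is at 0 in 1 tumor of each genotype.

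Gfra2 (gene ID 14586) was at 69, 53, 57 and 46 normalized counts in WT TAM 1 to 4 and at 265, 318, 325 and 174 in p110g-/- TAM 1 to 4. The lowest p110g-/- library was thus at 2.52 times the highest WT library, and p110g-/- TAM 4 was set below the other 3. The means were 56.3 ± 9.64 (SD, n = 4) and 271 ± 69.7 (n = 4), a ratio of 4.81. Between libraries of the same number the ratio was 3.84, 6.00, 5.70 and 3.78. In bulk RNA of this kind, more cells with a transcript and more transcript per cell cannot be told apart.

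In whole tumor the genotypes overlapped for Gfra2. The WT tumors held 224, 194 and 260 normalized counts and the p110g-/- tumors 288, 252 and 226. The log2 difference was 0.18 (SE 0.14, 95% interval −0.14 to 0.50, adjusted p = 0.451 with limma), which corresponds to a p110g-/- level of 0.905 to 1.41 times the WT level. Per 1000000 of the column total, Gfra2 stood at 1.67 ± 0.272 in WT TAM, below the ranges of the other 3 groups, which overlapped one another at 7.81 ± 2.27 (p110g-/- TAM), 8.25 ± 1.15 (WT tumor) and 9.61 ± 1.03 (p110g-/- tumor). WT macrophages were thus the low group for this co-receptor, at 0.202 times the level of WT tumors per 1000000, and p110g-/- macrophages were at 0.812 times the level of p110g-/- tumors.

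Of 11 other genes of the GDNF family and its receptors, 6 were in the tables and none was called in TAM or in whole tumor by limma without the block. At an unadjusted p below 0.05 there were 1 higher in TAM and 2 higher and 2 lower in whole tumor, where that p was reached in either direction by 5.87% of all genes tested in TAM and 26.2% in whole tumor. Their median log2 difference was −0.76 in TAM and 0.16 in whole tumor, against −0.01 and 0.01 over all genes tested. Ret, the kinase through which Gfra2 signals, had values near the floor in WT TAM, with 3, 11, 16 and 6 normalized counts, and 65, 146, 67 and 66 in p110g-/- TAM. Every p110g-/- library was above every WT library, as in 2.37% of all genes tested. This gave a log2 difference of 3.23 (SE 0.52) and an adjusted p from limma of 0.0991, or 0.0101 with the replicate block. Only 2 WT libraries reached 10, so Ret passed the minimum for testing in TAM through the p110g-/- libraries, where it is high, and these p-values are not support for a difference. In whole tumor the Ret values were 17, 15 and 18 in WT and 30, 28 and 31 in p110g-/-, again without overlap (15.7% of genes tested in that table), with a log2 difference of 0.80 (SE 0.22, adjusted p = 0.0741).

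The ligand genes of the family that were in the tables gave other patterns. Nrtn, the gene of neurturin, which Gfra2 binds, was named in the list but was not in the tables, so it has no values here. Gdnf, which was singled out after its values were seen, was at 3, 26, 57 and 53 in WT TAM and at 1, 14, 53 and 16 in p110g-/- TAM, so the groups overlapped. In whole tumor it was at 81, 78 and 71 in WT and 179, 102 and 117 in p110g-/-, a log2 difference of 0.74 (SE 0.21, adjusted p = 0.0825 with limma). Artn, the gene of the ligand artemin, was at 4 to 136 in WT TAM and 1 to 83 in p110g-/- TAM, with library 1 lowest in both genotypes. Its whole tumor values were 452, 515 and 437 in WT against 296, 421 and 281 in p110g-/-, a log2 difference of −0.51 (SE 0.16) with an adjusted p from limma of 0.0973, or 0.0426 with the replicate block. Gas1, a GDNF co-receptor homologue and among the family's most abundant members in TAM, was at 10 to 323 in WT and 4 to 250 in p110g-/- TAM. The fibroblast marker sum in TAM also spanned a wide range, from 2584 to 53292 in WT and from 716 to 41443 in p110g-/-, and its part in the ligand values was not tested.

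**Figure D2:**
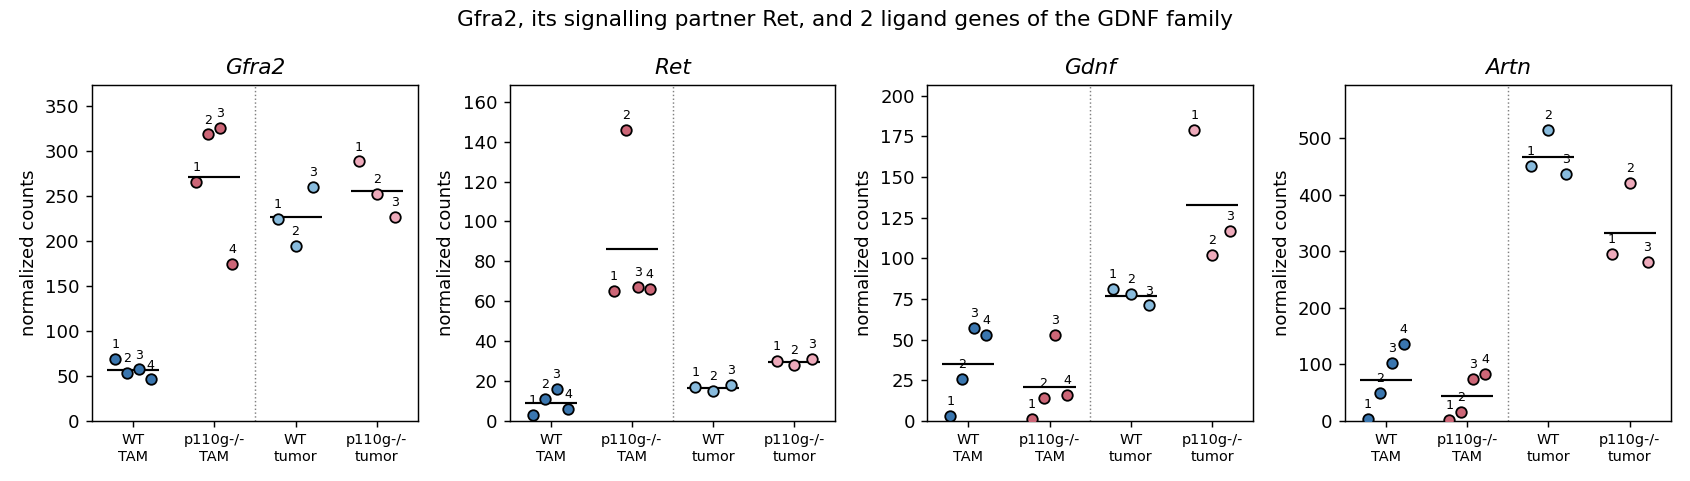
Normalized counts (vertical axis, linear, from 0) of Gfra2, Ret, Gdnf and Artn in the 14 libraries. Points are libraries with their replicate number and lines are group means. Ret and Gfra2 are higher in every p110g-/- TAM library than in every WT TAM library, whereas Gdnf and Artn overlap between the genotypes in TAM.

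Cacna1a (gene ID 12286) was at 29, 19, 27 and 18 normalized counts in WT TAM and at 196, 140, 157 and 219 in p110g-/- TAM. The lowest p110g-/- library was at 4.83 times the highest WT library, the widest gap among Hddc3, Cacna1a, Gfra2 and Sbsn. The means were 23.3 ± 5.56 and 178 ± 36.0 (SD, n = 4 each), a ratio of 7.66, and by replicate number the ratio was 6.76, 7.37, 5.81 and 12.2. Unlike Hddc3, Gfra2 and Sbsn, for which p110g-/- TAM 4 was the lowest p110g-/- library, Cacna1a was highest in that library. That library had the largest mitochondrial share, whose part in these values was not tested.

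In whole tumor Cacna1a rose. The WT tumors held 49, 55 and 53 normalized counts and the p110g-/- tumors 86, 98 and 115, with no overlap. This was a log2 difference of 0.91 (SE 0.16, 95% interval 0.54 to 1.28, adjusted p = 0.0293 with limma), a ratio of means of 1.90. The call was kept without p110g-/- tumor 1 (adjusted p = 0.0175) and lost without any other single tumor (adjusted p = 0.0771 to 0.103), while the log2 difference stayed at 0.80 to 1.01. Per 1000000 of the column total, the order was p110g-/- TAM (5.06 ± 0.869), p110g-/- tumor (3.76 ± 0.590), WT tumor (1.91 ± 0.111) and WT TAM (0.689 ± 0.162). The ranges of the 2 p110g-/- groups overlapped and the other neighbours in that order did not.

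The other subunits of voltage-gated calcium channels gave no called gene in TAM by limma, with or without the replicate block, and 0 at an unadjusted p below 0.05. Of all genes tested in TAM, 0.0721% were called higher and 0.0401% lower without the block, and 5.87% had that unadjusted p. A count of 0 in so short a list is thus not read as a result about the family. Of 25 named, 13 were in the tables and 11 were tested in TAM, where 8 had a positive and 3 a negative log2 difference and the median log2 difference was 0.21. The pore subunit gene Cacna1d, with the highest values of the family in TAM, was at 842 ± 349 in WT and 852 ± 184 in p110g-/-. Cacnb3, which encodes an auxiliary beta subunit, was at 205 ± 74.5 and 354 ± 193, and Cacnb1, of another beta subunit, at 157 ± 22.9 and 184 ± 33.8 (SD, n = 4 each). All 3 overlapped between the genotypes. Cacna1s, the skeletal muscle pore gene, was below the minimum for testing and did not overlap in TAM, at 0 to 5 normalized counts in WT and 7 to 21 in p110g-/-; it was named after its values were seen. In whole tumor 1 of 12 tested was called, Cacng7, a gene of the gamma subunit family, which fell from 258 ± 22.8 to 148 ± 16.9 (SD, n = 3 each; log2 difference −0.80, adjusted p = 0.0227 with limma). The share of all genes called lower there was 2.1%.

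Neuronal markers, which could accompany a nerve terminal channel, overlapped between the genotypes in TAM. Of 12 named, 7 were in the tables, and their summed level was 198 to 434 in WT and 224 to 455 in p110g-/- TAM. Tubb3 and Syp made up most of it, and Snap25, a defining gene of nerve terminals, was at 0 to 9 normalized counts over the 8 libraries. In whole tumor the sum was 1485 to 1868 in WT and 1773 to 1798 in p110g-/-. Single markers did separate the genotypes there, in both directions, and were named after their values were seen. Tubb3 was at 911 to 1196 in WT and 1259 to 1348 in p110g-/- tumors. Nefl was at 283 to 344 and 208 to 228, and Gap43 at 83 to 97 and 43 to 61. The other neuronal markers in the tables overlapped. Over all genes tested in whole tumor, 15.7% had every p110g-/- tumor above every WT tumor, and the share with every one below was not counted. These separations are thus not read as a result about neurons. For Schwann cells, 3 of 8 markers were in the tables and summed to 4874 to 6914 in WT and 5758 to 7731 in p110g-/- TAM. The part of these cells in the values of Cacna1a and Gfra2 was not tested.

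Hddc3 (gene ID 68695) was at 19, 27, 21 and 20 normalized counts in WT TAM and at 129, 208, 124 and 95 in p110g-/- TAM. The lowest p110g-/- library was at 3.52 times the highest WT library, and p110g-/- TAM 2 stood above the other 3. The means were 21.8 ± 3.59 and 139 ± 48.4 (SD, n = 4 each), a ratio of 6.39, and by replicate number the ratio was 6.79, 7.70, 5.90 and 4.75. This hydrolase gene was thus higher in the p110g-/- library of all 4 numbers.

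In whole tumor Hddc3 rose as well. The values were 10, 12 and 9 in WT and 31, 33 and 41 in p110g-/- tumors, with no overlap. The fitted log2 difference was 1.67 (SE 0.25, 95% interval 1.09 to 2.24, adjusted p = 0.0219 with limma), a ratio of means of 3.39. WT tumor 3, at 9, was below the minimum of 10. Hddc3 thus passed the minimum for testing through the p110g-/- tumors, where it is high, and its p-values here are not support for a difference. Without p110g-/- tumor 1 the adjusted p was 0.0178, and without each of the other 5 tumors it was 0.0528 to 0.0896 at a log2 difference of 1.55 to 1.77. Per 1000000 of the column total, the 4 groups did not overlap: p110g-/- TAM stood at 4.01 ± 1.51, p110g-/- tumor at 1.32 ± 0.208, WT TAM at 0.646 ± 0.113 and WT tumor at 0.378 ± 0.0578. Hddc3 was the only 1 of the 5 genes with a higher level per 1000000 in WT TAM than in WT tumor, by 1.71 times.

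The value of Hddc3 cannot be fully assigned to its own transcript. In the GENCODE annotation of GRCm38, 76.3% of its exon bases overlap other genes on the opposite strand, 65.0% with Gm18310 and 11.3% with Man2a2, and the labels name no strand setting of the counting, so reads of the overlapping genes cannot be told apart. In RefSeq the spans of Hddc3 and Man2a2 do not overlap. Man2a2, which encodes a Golgi mannosidase, was at 1912, 1558, 1538 and 1492 normalized counts in WT TAM and at 2498, 3265, 2798 and 2565 in p110g-/- TAM. Every p110g-/- library was above every WT library. Its log2 difference of 0.77 (SE 0.12, adjusted p from limma of 0.0683, or 0.0197 with the replicate block) was smaller than that of Hddc3, 2.57. In whole tumor the Man2a2 log2 difference was 0.25 (adjusted p = 0.0566). The part of reads from the opposite strand in the Hddc3 values was not tested.

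Genes of related enzymes gave no called gene in TAM. Of 18 genes of HD-domain hydrolases and of enzymes that make or use NADP(H), 16 were in the tables, none passed limma in TAM (2 higher at an unadjusted p below 0.05), and the median log2 difference was 0.04 in both tables. That unadjusted p was reached in either direction by 5.87% of all genes tested in TAM. The TAM differences ran from −0.83 for Me1, which encodes the cytosolic malic enzyme, to 0.67 for Nnt. The most abundant in TAM were the pentose phosphate genes Tkt (17000 ± 1621 in WT, 17596 ± 3315 in p110g-/-) and Pgd (14348 ± 2663 and 15190 ± 1914), and Samhd1, an HD-domain deoxynucleotide hydrolase (16345 ± 6901 and 14453 ± 5055). Nnt, the mitochondrial transhydrogenase that makes NADPH, was at 1096 ± 74.7 in WT and 1767 ± 302 in p110g-/- TAM (log2 difference 0.67, adjusted p from limma of 0.186, or 0.0478 with the replicate block). In whole tumor Samhd1 rose (log2 difference 0.40, adjusted p = 0.0319), and Pgls (−0.42, adjusted p = 0.020) and Idh2 (−0.35, adjusted p = 0.0339), which both encode enzymes of NADPH supply, fell. Over all genes tested there, 2.25% were called higher and 2.1% lower.

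Sbsn (gene ID 282619) was at 100, 126, 119 and 98 normalized counts in WT TAM and at 261, 332, 302 and 236 in p110g-/- TAM. The groups did not overlap, with a factor of 1.87 between their nearest libraries. The means were 111 ± 13.9 and 283 ± 42.6 (SD, n = 4 each), a ratio of 2.55, the smallest among Hddc3, Cacna1a, Gfra2 and Sbsn. By replicate number the ratio was 2.61, 2.63, 2.54 and 2.41, the narrowest spread of ratios among the same 4 genes.

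In whole tumor Sbsn did not pass the test. Its values were 130, 162 and 172 in WT and 254, 224 and 203 in p110g-/- tumors, so every p110g-/- tumor was above every WT tumor. The resulting log2 difference was 0.55 (SE 0.14, 95% interval 0.23 to 0.88, adjusted p = 0.0661 with limma), a ratio of means of 1.47. Per 1000000 of the column total, WT TAM was lowest at 3.29 ± 0.455. The ranges of p110g-/- tumor (8.55 ± 0.841) and p110g-/- TAM (8.12 ± 1.51) overlapped, as did those of p110g-/- TAM and WT tumor (5.65 ± 0.777). The order of the first 2 reversed when libraries were scaled by their 75th percentile, from a log2 ratio of TAM to tumor of −0.07 to 0.15.

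The epidermal genes that accompany Sbsn in skin were scarce. Of 21 named, 6 were in the tables, 5 were tested and none was called by limma in either table, with or without the replicate block, or had an unadjusted p below 0.05, with a median log2 difference of −0.22 in TAM and 0.12 in whole tumor. Over all genes tested, 5.87% in TAM and 26.2% in whole tumor had that unadjusted p, so the lack of calls among 5 genes is not read as a result. Tgm1, the keratinocyte transglutaminase gene, was at 396 ± 181 in WT and 357 ± 120 in p110g-/- TAM, and Sfn, which encodes the epithelial 14-3-3 sigma, at 137 ± 25.5 and 109 ± 6.25 (SD, n = 4 each). Dmkn, the epidermal gene next to Sbsn, was at 118, 47, 30 and 24 in WT TAM and 191, 34, 27 and 43 in p110g-/- TAM. Library 1 was highest for Dmkn in both genotypes, and the genotypes overlapped. Of 19 keratinocyte markers, 5 were in the tables, with a sum of 204 to 304 in WT and 186 to 330 in p110g-/- TAM, so this sum did not separate the genotypes as Sbsn did. An exon of Tmem147os shares 7.70% of the exon bases of Sbsn.

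Zfp781 (gene ID 331188) was listed at 0 in all 4 WT TAM libraries and at 49, 46, 46 and 54 normalized counts in p110g-/- TAM. The p110g-/- values had the narrowest relative spread of the 5 genes in that group (48.8 ± 3.77, SD, n = 4, or 7.74% of the mean) and correspond to an estimated 27.9 to 58.9 reads. The gene passed the minimum for testing in TAM only through the p110g-/- libraries, and no fold is given against a group listed at 0. In the WT TAM libraries 3 reads would make 2.53 to 3.72 normalized counts, so the p110g-/- values lie well above that floor.

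In whole tumor the zeros of Zfp781 did not follow genotype. The WT tumors held 70, 0 and 71 normalized counts and the p110g-/- tumors 0, 68 and 100. The 4 tumors above 0 were thus all at 68 or more, and 1 tumor of each genotype was listed at 0. The tested difference was 0.15 on the log2 scale (SE 2.13, adjusted p = 0.974 with limma) and changed sign when WT tumor 2, p110g-/- tumor 2 or p110g-/- tumor 3 was left out. A value of 0 here may stand for a failed estimate rather than for no transcript.

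A gene listed at 0 in some libraries and at 30 or more in all others was rare. There were 4 such genes among 12924 over the 14 libraries: Zfp781 with 6 zeros, and Etohi1, Btg3 and Sgsm3 with 1 zero each, the last 3 named after their values were seen. In p110g-/- TAM 1, Etohi1 was the gene at 0, in p110g-/- TAM 3 it was Btg3 and in WT TAM 1 it was Sgsm3. Of 10 genes listed at 0 in all WT TAM libraries, the 9 other than Zfp781 reached at most 8 normalized counts in a p110g-/- TAM library. The on-or-off pattern over TAM genotypes at this size was thus found for Zfp781 alone among the genes of the tables. The same TAM values chose Zfp781, so this is a description and not support for a genotype switch.

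Zfp781 has near-identical relatives. Of the 50-base words in its GENCODE transcripts, 96.3% also occur in transcripts of 52 other genes, and 95% occur in Gm3055. The labels do not say how reads shared by such copies were counted, so the value is uncertain, and Gm3055 was not analysed here. For comparison, the share was 66.6% for Hddc3, mostly from Gm18310, 6.96% for Sbsn, 2.50% for Cacna1a and 1.34% for Gfra2. The values of Cacna1a and Gfra2 are thus the least exposed to shared sequence.

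No other zinc finger gene of the list, and no cofactor gene through which many zinc finger repressors act, was called in TAM by limma without the replicate block. Of 294 other genes named Zfp with a number, 292 were tested in TAM, with a median log2 difference of −0.05, and 1 was higher and 8 lower at an unadjusted p below 0.05, which 5.87% of all genes tested reached. With the replicate block 1 was called, Zfp36, which encodes the mRNA-destabilizing protein tristetraprolin, at 20262 ± 5893 in WT and 33836 ± 7519 in p110g-/- TAM (log2 difference 0.76, adjusted p from limma of 0.554, or 0.0120 with the block). The next most abundant, Zfp207 (6094 ± 565 and 5959 ± 321) and Zfp106 (5997 ± 606 and 6310 ± 482), overlapped between the genotypes. In whole tumor 2 of 294 rose, against 2.25% of all genes tested: Zfp638 (log2 difference 0.21, adjusted p = 0.0398) and Zfp236 (0.26, adjusted p = 0.0438). A further 3 of 294 fell, against 2.1%: Zfp580 (−0.90, adjusted p = 0.0159), Zfp13 (−0.74, adjusted p = 0.0206) and Zfp771 (−0.71, adjusted p = 0.0293). Of 12 cofactor genes none had an unadjusted p below 0.05 in TAM or was called there with the block, where Chd4 (9289 ± 892 and 9864 ± 1076), Trim28 (5753 ± 786 and 5830 ± 718) and Chd3 (4011 ± 580 and 4211 ± 644) were the most abundant, and 1 fell in whole tumor, the deacetylase gene Hdac1 (−0.21, adjusted p = 0.0413).

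In all, 2 of the 5 genes, Hddc3 and Cacna1a, were called higher in p110g-/- whole tumors, where 286 of 12717 genes tested (2.25%) were called higher. Hddc3 passed the minimum for testing there through the p110g-/- tumors, so its call is not support for a difference. No p110g-/- tumor overlapped a WT tumor for Hddc3, Cacna1a and Sbsn, against 15.7% of all genes tested with every p110g-/- tumor above every WT tumor. The number of genes called higher over the whole table was 980 without p110g-/- tumor 1 and 21 to 106 without each of the other 5 tumors, and 439 (3.45%) with the replicate block. The 7 gene lists together held 390 distinct genes tested in whole tumor, of which 3 were called higher and 11 lower, against 2.25% and 2.1% of all genes tested. These 14 calls became 48 without p110g-/- tumor 1 and 0 to 2 without each other tumor. For Hddc3, Cacna1a, Gfra2 and Sbsn the log2 difference was larger in TAM (2.57, 2.89, 2.22 and 1.34) than in whole tumor (1.67, 0.91, 0.18 and 0.55). That contrast was not tested, since the TAM values chose the genes.

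**Figure D3:**
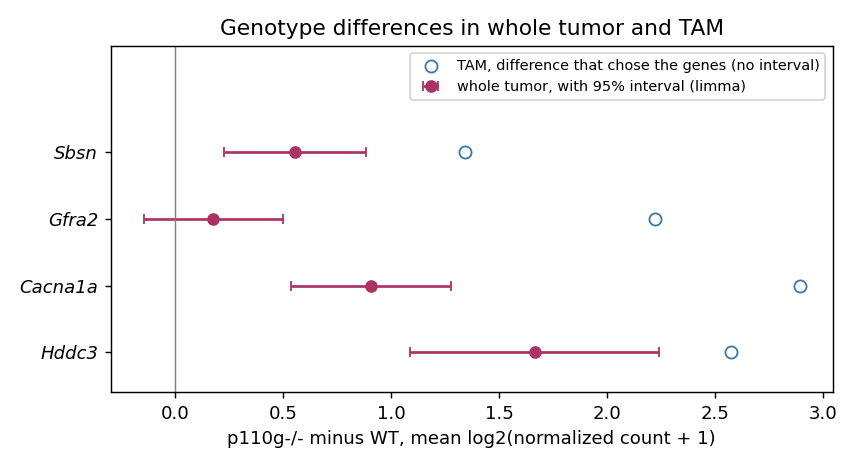
Difference of mean log2(normalized count + 1), p110g-/- minus WT (horizontal axis), for 4 genes. Filled points with bars are whole tumor with the 95% interval from limma, and open circles are TAM, shown without an interval because that difference chose the genes. The intervals of Hddc3, Cacna1a and Sbsn lie above 0 and that of Gfra2 includes 0. Hddc3 passed the minimum for testing in whole tumor through the p110g-/- tumors, so its interval is not support for a difference. Zfp781 is left out because it is listed at 0 in all WT TAM libraries.

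Sums of cell type markers were also compared between the whole tumor groups. Summed normalized counts of macrophage markers (13 of 14 in the tables) were 62632 to 90770 in WT and 77102 to 107343 in p110g-/- tumors. Those of T cells (6 of 7) were 99 to 248 and 448 to 601, those of endothelium (7 of 7) 911 to 1468 and 1545 to 1856, and those of carcinoma (4 of 4) 13954 to 15071 and 9261 to 10625. The first of these overlapped between the genotypes and the other 3 did not. The sums of all other marker sets overlapped in whole tumor, among them neutrophil (6210 to 9173 in WT and 5552 to 10223 in p110g-/-) and monocyte (12399 to 15834 and 11187 to 16155). Among single genes tested there, 15.7% had every p110g-/- tumor above every WT tumor. In TAM the T cell sum was 77 to 167 in WT and 72 to 186 in p110g-/-, and the neutrophil sum (6 of 9) 273 to 2389 and 422 to 1128. The part of these cells in the values of Hddc3 and Cacna1a in whole tumor was not tested.

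The nearest genes on the chromosome were read as a comparison for position. None of the 5 genes lies on the chromosome of Pik3cg. The 5 nearest genes of the tables on each side of every member gave 50 neighbours, of which 49 were tested in TAM and none was called by limma (5 higher and 6 lower at an unadjusted p below 0.05, against 5.87% of all genes tested). The log2 differences of those tested ran from −0.95 to 0.77 with a median of 0.02. The neighbour left untested was Cysltr2, a leukotriene receptor gene 2 places from Gfra2, which was named after its values were seen. It was at 9 to 40 normalized counts in WT and 0 to 6 in p110g-/- TAM, with no overlap, and too few libraries reached 10. With the replicate block Man2a2, Ier2, Rcbtb2 and Rb1 were called higher and Gm32687, 1190007I07Rik and Mri1 lower. These were 4 and 3 of 49 tested, a larger share than the 1.01% and 1.49% of all genes tested. The cause of that larger share was not tested. Directly beside the members, the log2 difference in TAM was −0.13 for Dok2 and −0.22 for Fndc3a (Gfra2), 0.00 for Ccdc130 and 0.36 for Ier2 (Cacna1a), 0.37 for Unc45a and 0.77 for Man2a2 (Hddc3), 0.00 for Tmem147 and 0.23 for Dmkn (Sbsn), and −0.65 for Gm32687 and 0.04 for Gm8290 (Zfp781). In whole tumor 4 of 48 neighbours tested fell, against 2.1% of all genes tested: Furin (−0.33, adjusted p = 0.0344 with limma), Mri1 (−0.27, adjusted p = 0.0487), Nfix (−0.23, adjusted p = 0.0335) and Rbm42 (−0.26, adjusted p = 0.0381).

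**Figure D4:**
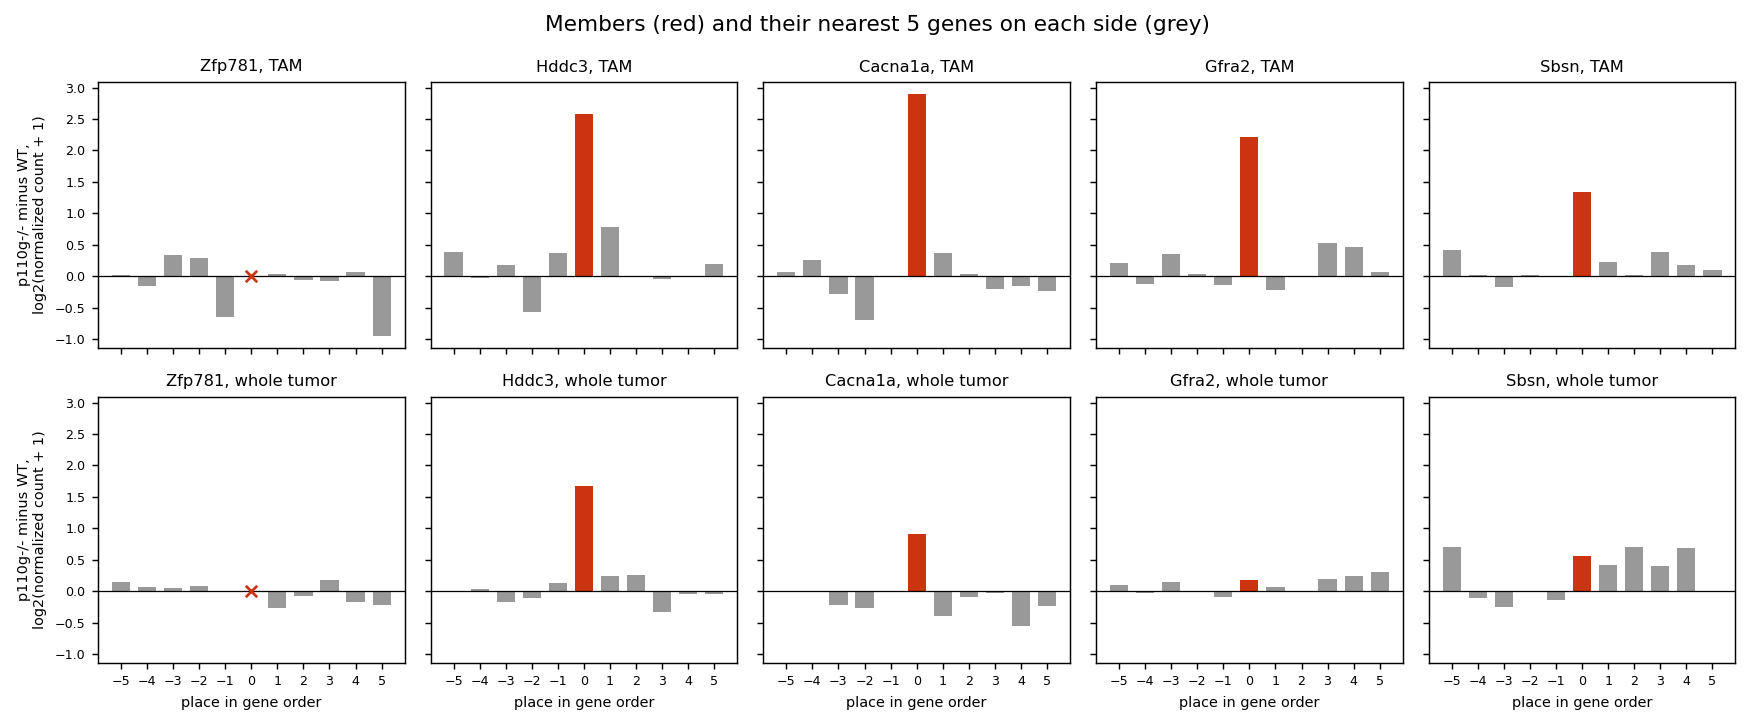
Difference of mean log2(normalized count + 1), p110g-/- minus WT (vertical axis), for each member (red, place 0) and its 5 nearest genes on each side (grey) in TAM (top row) and whole tumor (bottom row). The red cross marks Zfp781, drawn without a bar because it is listed at 0 in several libraries; a place with no bar is a gene below the minimum or with a difference near 0. In TAM the grey bars run from −0.95 to 0.77, and the red bars are 1.34 (Sbsn), 2.22 (Gfra2), 2.57 (Hddc3) and 2.89 (Cacna1a). The members were chosen for their TAM difference, so their taller bars are not a result about position. Cysltr2, at place 2 beside Gfra2, is below the minimum and not drawn.

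The 5 genes were also among one another's most similar genes over the 8 TAM libraries, which the shared basis of their choice favours. The comparison covered 12007 genes with a mean of at least 20 normalized counts, the members among them. The pattern most like that of Hddc3 was that of Sbsn (Pearson r of log2(normalized count + 1) of 0.990), followed by Gfra2 (0.970) and Zfp781 (0.967). For Cacna1a it was Lyz1 (0.988), then Zfp781 (0.985) and Klrb1b (0.982), and for Zfp781 it was Cacna1a (0.985), then Klrb1b (0.985) and Lyz1 (0.978). For Gfra2 it was Sbsn (0.974), Hddc3 (0.970) and Sdc4 (0.968), and for Sbsn it was Hddc3 (0.990), Plekha8 (0.983) and Gfra2 (0.974). These points share libraries, scaling and the genotype step, so r is a description only.

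Within genotype Hddc3, Cacna1a, Gfra2 and Sbsn were compared, without Zfp781, which is listed at 0 in WT TAM. Over the deviations of the 8 TAM libraries from their genotype means, Hddc3 and Sbsn correlated at 0.84, Gfra2 and Sbsn at 0.59 and Hddc3 and Gfra2 at 0.52. Cacna1a went the other way, at −0.68 with Hddc3, −0.55 with Sbsn and −0.17 with Gfra2. The genes whose deviations were most like those of a member were Lpcat3, Aph1a and Vps52 for Hddc3 (r of 0.977 to 0.981), Pdzd11, Zcchc3 and Ppp1r16b for Cacna1a (0.953 to 0.991), Nars, Kctd9 and A130010J15Rik for Gfra2 (0.937 to 0.976), and Atrn, Nbas and Slc25a12 for Sbsn (0.969 to 0.980). None of these 12 genes is a member, and they are named only by that rule. The libraries share depth and mitochondrial share by replicate number, so these values are descriptions over 8 points.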

How the data were processed

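RNA was sequenced from 14 libraries in 4 groups. The submitters' processing notes name Bowtie2, DESeq and mm9, a mouse genome build, with the gene counter, annotation and strand setting not given in the sources used here. Deposited by the authors were a TAM table and a whole tumor table whose values are a score, that is, gene counts scaled by 1 factor per library and rounded, here called normalized counts. This was read from the values, and the tables are taken as normalized separately, so tests were run within a table and levels are set across them per 1000000 of the column total. Depth was estimated from the step that 1 read leaves in the rounded values.

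The genotypes were compared with limma 3.58.1 (R 4.3.3) on log2(normalized count + 1), with a prior on the spread that depends on the mean, two-sided, and Benjamini-Hochberg adjustment over all genes tested. Changes of low genes are understated on that scale. A gene was tested where at least 4 TAM or 3 whole tumor libraries reached 10, and called at an adjusted p below 0.05. In fits that left out a library, the number of libraries required was lower by 1, so the set of genes tested could also change. The fits were tested on simulated data. The members, gene lists and tests were chosen with earlier results of these data known. Genes named are the members, Pik3cg, the list genes that were called or were the 3 most abundant in TAM, neighbours beside a member or called, and the 3 genes most like each member. A planned comparison of proteins was replaced by shared words of transcripts.

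Replicate numbers stand in the labels without a meaning. Same-numbered TAM libraries deviated together from their group means (r of 0.847, 0.472, 0.808 and 0.702 over 12475 genes), so the number is used as a block there as an alternative. By this measure WT TAM 4 was most like number 3 of the other genotype. Other alternatives were a pseudocount of 4, no minimum, upper-quartile scaling and leaving out each library.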

Additional observations from a re-analysis of the deposited data

How the results depend on the processing

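Under a pseudocount of 4, no minimum and upper-quartile scaling, Hddc3 and Cacna1a kept their calls in whole tumor, and Gfra2 and Sbsn stayed above the threshold. Hddc3 passed the minimum for testing there through the p110g-/- tumors, so its calls and p-values at that minimum are not support for a difference. With the replicate block the adjusted p with limma was 0.0314 for Hddc3, 0.0340 for Cacna1a and 0.0897 for Sbsn in whole tumor, whose same-numbered libraries hardly deviated together (r of 0.0947, 0.0763 and 0.178), so there the samples share only a number. The block gave 126 genes called higher (1.01%) and 186 lower (1.49%) in TAM, and 439 called higher in whole tumor. Over the lists it gave 10 called of 388 genes tested in TAM. That is close to the share over all genes tested and is not read as a result about the lists. Scaling by the 75th percentile reversed the p110g-/- TAM to tumor log2 ratio of Sbsn to 0.15.

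Leaving out 1 library gave 3 to 33 genes called higher and 0 to 26 lower in TAM, with 0 to 1 over the lists, and 21 to 980 higher and 7 to 1021 lower in whole tumor, with 0 to 48 over the lists. The whole tumor log2 difference then ranged from 1.55 to 1.77 for Hddc3, from 0.80 to 1.01 for Cacna1a and from −1.90 to 2.28 for Zfp781, which turned negative without WT tumor 2 (−1.90), p110g-/- tumor 2 (−0.78) and p110g-/- tumor 3 (−1.05). Of these 6 fits, the calls of Hddc3 and Cacna1a held only in the one without p110g-/- tumor 1. The cause was not tested. Depth limits the low values: in WT TAM, Hddc3 rests on an estimated 16.7 to 25.0 reads and Cacna1a on 15 to 34.4.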
